A study of Mus musculus with 36 samples.

Results

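Dense distal clusters of DNase hypersensitive sites (DHS) are stretches of the genome in which several open chromatin sites lie close together, away from promoters. They were taken from all 52788 DHS of the deposited table. Every DHS more than 1000 bp from any transcript start of the GENCODE vM21 basic set (mm10) was kept, neighbours with gaps of at most 5000 bp were joined, and runs of 5 or more DHS were retained. This gave 454 clustered DHS in 84 runs, out of 39131 distal DHS. The choice rests on position alone and uses no measured level.

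DNase-seq, in which DNase I releases short fragments from open chromatin that are then sequenced, was performed on B3, a mouse pre-B cell line. The Ikaros line carries an MSCV retroviral vector for haemagglutinin-tagged wild type Ikaros fused to the hormone-binding domain ERt2, followed by an IRES and GFP, and the Control line carries the vector without Ikaros. Both lines were sampled at 0, 2, 6, 12, 18 and 24 h with 3 replicates each, which makes 12 groups and 36 libraries. Replicates 4, 5 and 6 belong to batches 11, 12 and 13 per the labels, and 4-hydroxytamoxifen (4-OHT), which lets the fusion protein enter the nucleus, was given at 0.5 µM to both lines. The labels name the drug for the 0 h samples too, whereas the methods of the study state that 0 h cells received none and were obtained separately, for both lines and in the same batches per the labels, so a change from 0 h to later times and the separate collection cannot be told apart. The Ikaros fusion is expressed from a viral vector on top of the Ikaros gene of the cells, and B3 is a single line, so the replicates are cultures of it.

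Enhancers, the distal elements that raise transcription of genes on the same chromosome, often appear as DHS because bound factors displace nucleosomes. Clusters of them are known at genes that mark a cell's identity, such as the immunoglobulin heavy chain (Igh) locus of B cells. Ikaros, encoded by Ikzf1, is a zinc finger factor that binds DNA around the core TGGGAA and is needed for pre-B cells to stop dividing and mature. Distal DHS need not be enhancers: genes transcribed by RNA polymerase III, such as transfer RNA (tRNA) genes, are themselves open and carry their promoter inside the gene, including a stretch called the B box.

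Of the 12 pre-B marker genes examined, 10 had a promoter DHS, among them Cd79a, Vpreb1, Igll1 and Pax5. Only Tcf7 of 9 T cell markers, Lyz2 of 8 myeloid markers, and 2 of 5 erythroid markers had one. Library medians over all DHS lay between 3.90 and 4.11 on the log2 scale. The group means of the table span 6 of 11 possible dimensions after the correction by the authors, so groups are not fully independent of each other.

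Sequences are shown for the 2 kinds of cluster on which the results turn, DHS over tRNA genes and DHS over coding exons of Ikzf1, and for single DHS that differed between the lines. They were read from GRCm38 (mm10). Of the 84 runs, 4 contained DHS that overlap RefSeq tRNA genes, 18 DHS over 19 genes in all. Capitals mark the B box core GTTCGANNC, found in 15 of the 19 genes. The lines below are the tRNA genes under 2 of the 3 clustered tRNA DHS called at 24 h. In names such as n-TTagt8 the letter after T is the amino acid and the small letters are the anticodon.
n-TTagt8, chr11:69037853-69037926, plus strand: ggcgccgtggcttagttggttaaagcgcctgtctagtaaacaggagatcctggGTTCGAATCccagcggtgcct
n-TKctt16, chr3:96499512-96499584, minus strand: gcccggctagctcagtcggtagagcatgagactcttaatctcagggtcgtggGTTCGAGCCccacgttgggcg

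The 156 bp DHS at Ikzf1 is shown with its coding exon of 123 bases in capitals. It is printed because the capitals belong to the coding sequence of Ikaros, the protein that the vector encodes as a fusion. Whether the insert holds introns is not given in the sources used here.
Ikzf1 DHS, chr11:11758181-11758336, plus strand: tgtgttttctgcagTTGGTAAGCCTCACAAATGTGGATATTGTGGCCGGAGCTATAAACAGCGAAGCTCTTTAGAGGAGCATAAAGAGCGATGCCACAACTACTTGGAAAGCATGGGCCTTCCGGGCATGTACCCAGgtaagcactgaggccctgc

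Single DHS follow, from the runs at Ninj2, Smug1, Junb and Apopt1. In the Smug1 DHS capitals mark 2 copies of the octamer ATTTGCAT, bound by Oct factors, and in the Junb and Apopt1 DHS they mark TGGGAA on either strand.
Ninj2 DHS, chr6:120154998-120155140, plus strand: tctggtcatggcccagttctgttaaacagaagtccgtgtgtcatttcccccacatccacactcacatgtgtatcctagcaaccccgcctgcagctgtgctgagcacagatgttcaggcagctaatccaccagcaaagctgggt
Smug1 DHS, chr15:103168935-103169090, plus strand: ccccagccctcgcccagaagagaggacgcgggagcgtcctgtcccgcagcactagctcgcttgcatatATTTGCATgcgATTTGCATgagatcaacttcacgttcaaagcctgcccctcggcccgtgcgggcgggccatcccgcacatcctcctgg
Junb DHS, chr8:84981069-84981217, plus strand: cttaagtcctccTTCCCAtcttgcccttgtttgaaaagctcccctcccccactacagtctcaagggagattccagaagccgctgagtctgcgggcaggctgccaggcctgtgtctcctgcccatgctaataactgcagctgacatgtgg
Apopt1 DHS, chr12:111744149-111744317, plus strand: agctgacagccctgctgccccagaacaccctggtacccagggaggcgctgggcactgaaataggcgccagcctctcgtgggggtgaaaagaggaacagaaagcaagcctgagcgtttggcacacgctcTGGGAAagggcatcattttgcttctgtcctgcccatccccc

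The runs held 5 to 8 DHS each, the lower end being set by the rule. Of the 84, 56 held 5 DHS, 23 held 6, 4 held 7 and 1, at Smug1, held 8. Their span ranged from 3825 bp to 22910 bp. In all, 36 runs overlapped the body of a protein-coding gene and 48 overlapped none, some of which lay in introns of noncoding genes. The clustered DHS were 54.2% intergenic, 41.4% intronic and 4.41% exonic, against 44.3%, 47.9% and 7.80% of the 38677 distal DHS outside runs.

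Clustered DHS had a median level of 4.32 (log2), against 3.81 for distal DHS outside runs and 3.95 for all DHS. They were narrow, with a median width of 158 bp, close to the 163 bp of other distal DHS. Median GC content was 50.3% against 48.0%. TGGGAA was present in the central 200 bp, on either strand, of 18.7% of clustered DHS, 17.8% of other distal DHS and 17.2% of all DHS, so its share was near the background. The shares of the PU.1 motif GAGGAAGT (5.95% against 5.07% of all DHS), the RUNX motif TGTGGTT (9.91% against 9.54%), the E protein motif CAGCTG (17.4% against 14.8%) and the EBF1 motif CCCNNGGGA (9.91% against 8.34%) were also close. The octamer, searched after the Smug1 sequence had been seen, occurred in 4.19% against 1.74%, and 7 of its 19 clustered carriers lay in the repeated runs described next.

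Part of the clusters lies in sequence that occurs more than once in the genome. For each DHS the share of its 32-base words found once in GRCm38 was counted. Of the clustered DHS, 19.2% had under 90% such words, against 7.02% of all DHS. In 10 runs with 58 DHS the mean share was under 70%, among them the runs at Gm17019/Gm21149, Rex2/Zfp991, 2410141K09Rik/Gm10767 and Gm47283 on chromosome Y. The authors kept reads with 1 alignment only, so the level of such DHS rests on part of their length.

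Run levels, the mean log2 value of the DHS of a run in a library, ranged from 3.03 at Gm21083/Speer4d to 5.84 at Ctc1/Aurkb. The group means of a run differed by a median of 0.48 (log2) between its highest and lowest group, whereas the mean replicate SD of a run was 0.17 at the median. The highest of the 12 groups was Ikaros 0h in 18 runs and Control 0h in 15, and the lowest was Ikaros 0h in 19 runs and Ikaros 24h in 18. Ikaros 2h and Ikaros 6h were neither highest nor lowest in any run. The map of run levels shows these patterns for 83 of the runs.

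**Figure D1:**
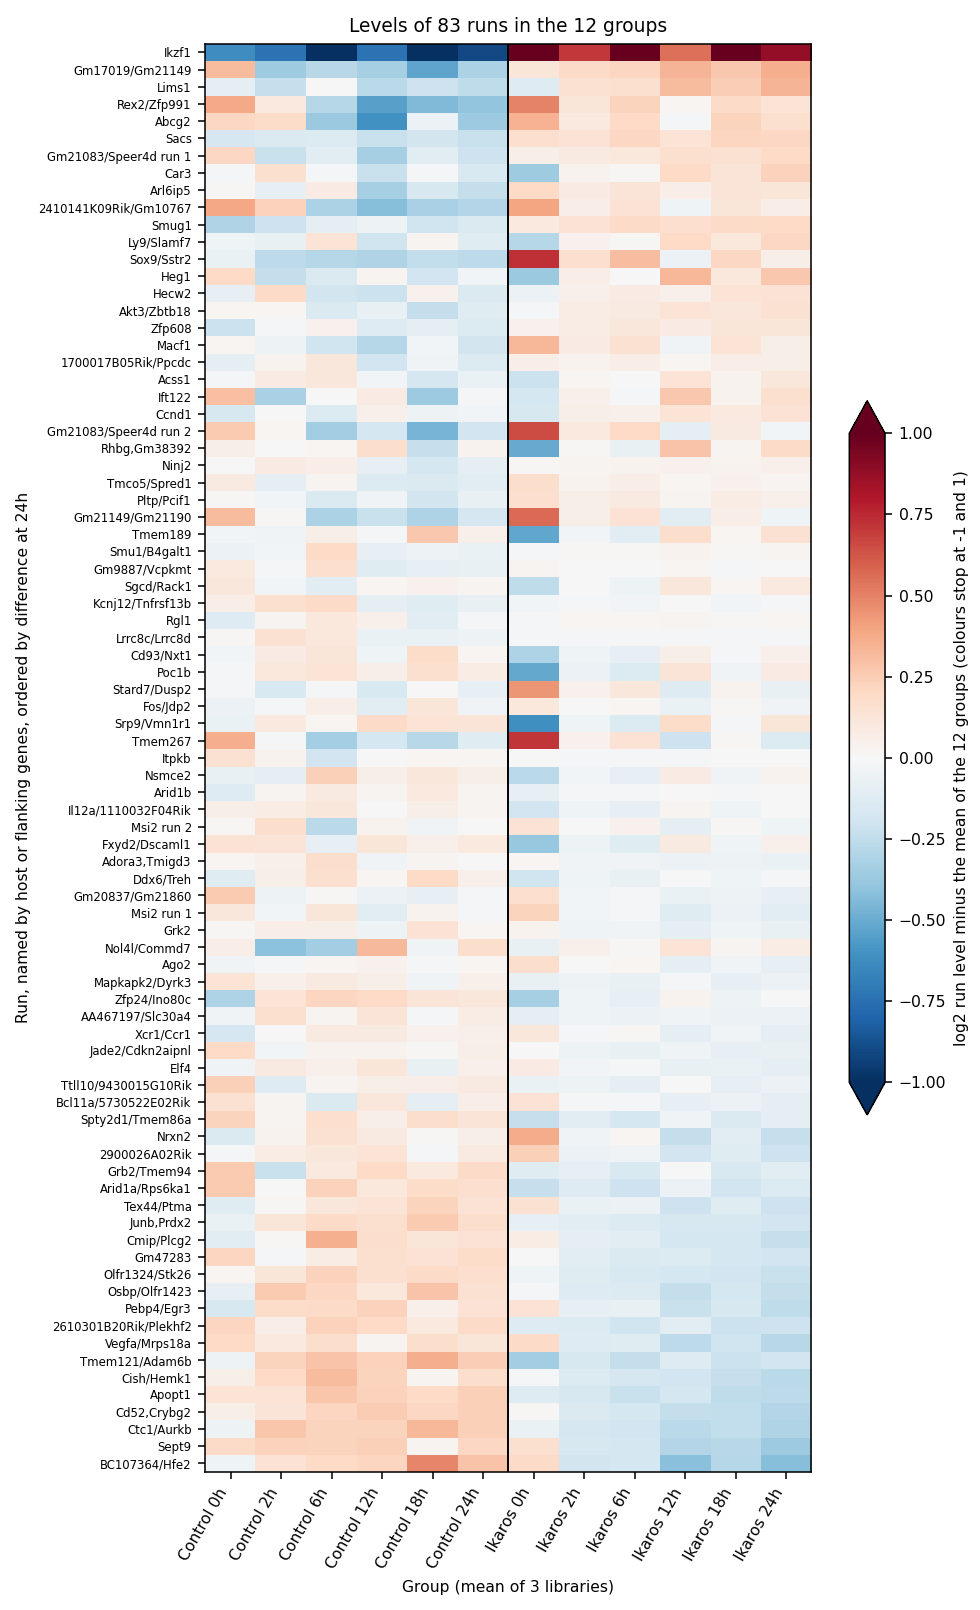
Level of 83 of the 84 runs (rows) in the 12 groups (columns, mean of 3 libraries), as log2 run level minus the mean of the 12 groups; red is higher and blue lower. Ikzf1, with a difference of 1.78 at 24 h, stands at the top, and the tRNA run at BC107364/Hfe2, with -0.71, at the bottom.

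The lines were compared at each time to ask whether clustered sites differed once Ikaros entered the nucleus. At 24 h, 15 of 454 clustered DHS passed the threshold of an adjusted p of 0.05 (limma, Benjamini-Hochberg over all DHS), 8 higher and 7 lower in Ikaros. This is 3.30%, against 1.33% of all DHS, of which 0.809% were higher and 0.517% lower. Without the Ikzf1 run it was 2.46%. Leaving out any 1 library of 24 h lowered it to between 0.661% without Ikaros replicate 5 and 1.98% without Control replicate 5. It was 1.54% without Control replicate 4, and 1.10% without Control replicate 6, Ikaros replicate 4 or Ikaros replicate 6. The share of all DHS under these fits is not given here, so whether the excess over all DHS held cannot be read from these values.

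At 2 h, 2 clustered DHS were called (0.441%, against 0.195% of all DHS), both in the Ikzf1 run. Without any 1 Ikaros library of 2 h the share was 0.220%, and without Control replicate 5 it was 1.98%. At 6 h there were 5 (1.10% against 0.578%), 4 of them in the Ikzf1 run. The share became 0.661% without Ikaros replicate 6 and 1.76% without Control replicate 6. At 12 h and at 18 h there were 10 each (2.20%), against 1.31% and 0.699% of all DHS. At 12 h it was 0.220% without any 1 Ikaros library and 1.32% without Control replicate 5. At 18 h it was 0.881%, 1.32% and 1.10% without Ikaros replicate 4, 5 and 6, and 1.32% without Control replicate 4.

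At 0 h, 43 were called (9.47%), below the 12.9% of all DHS, with 28 higher and 15 lower (7.81% and 5.04% of all DHS). Of the 38677 distal DHS outside runs, 8.25% were called at 0 h, 710 higher and 2481 lower. Without Control replicate 6, Ikaros replicate 4 or Ikaros replicate 5 the clustered share was 2.64%, 5.29% and 5.95%. Fitted on the 2 groups of 0 h alone it was 0.220%. With replicate number as a block, the shares were 0.220% at 2 h and 1.32% at 12 h.

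Clustered DHS as a whole were not shifted far. The median difference (Ikaros minus Control, log2) at 24 h was -0.07 for clustered DHS, 0.11 for distal DHS outside runs and 0.06 for all DHS. At 24 h 15 runs had every DHS lower in Ikaros, 4 had every DHS higher, and 65 were mixed. The 3 Ikaros run levels did not overlap the 3 Control levels in 35 of 84 runs (41.67%), 14 above and 21 below. Among the 1234 shorter runs of 3 or 4 distal DHS the share was 30.7%, with fewer DHS averaged in each level. The part of run length in these shares was not tested. Of the single clustered DHS, 32.6% did not overlap, against 25.5% of all DHS.

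The Ikzf1 run, at chr11:11753826-11769688, had the largest difference. Its level at 24 h was 2.65, 3.40 and 2.95 in the Control replicates 4, 5 and 6, and 4.88, 4.89 and 4.58 in the Ikaros replicates, with no overlap. The difference was already 1.75 at 0 h, before the drug per the methods, and stayed between 1.29 and 2.26 at the later times.

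The 6 DHS of this run fell into those over coding exons and those in introns. The DHS at chr11:11768688-11769688, which covers 698 coding bases, was at 2.17, 3.21 and 1.99 in Control and 6.02, 6.20 and 6.04 in Ikaros at 24 h. It was higher in Ikaros by 3.63 ± 0.32 (SE; limma adjusted p = 1.52e-07), and was called under every alternative tried. The difference was as large at 0 h, at 3.61, with Control at 2.24, 3.25 and 3.09 and Ikaros at 6.62, 6.25 and 6.52. The 3 other DHS over coding exons differed by 2.46 ± 0.55 (adjusted p = 0.021), 1.72 ± 0.38 (0.021) and 1.61 ± 0.42 (0.0461), and by 2.05, 1.84 and 2.25 at 0 h. The first was lost without Control replicate 4, Ikaros replicate 4 or Ikaros replicate 5 (up to 0.140). The next was lost without those or Control replicate 6 (up to 0.111). The last was lost without any single library but Control replicate 5 (up to 0.206) and with the replicate block (0.0627). All 3 were lost after removal of trends with level, GC and width, and the last also under quantile normalization and with the 2 groups of 24 h fitted alone.

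The 2 DHS of the run that cover no coding base were not called at 24 h. The DHS at chr11:11763019-11763622 differed by 0.58 (limma adjusted p = 0.318), though at 0 h it differed by 0.81 (adjusted p = 0.0474), with Control at 24 h at 3.33, 3.34 and 3.10 and Ikaros at 3.84, 3.82 and 3.84. The DHS at chr11:11766209-11766368 differed by 0.70 (adjusted p = 0.170), with Control at 4.81, 5.23 and 6.05 and Ikaros at 6.16, 6.09 and 5.95, which overlap. Since the vector encodes Ikaros, reads from the vector and from the exons of the gene itself cannot be told apart in this table.

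**Figure D2:**
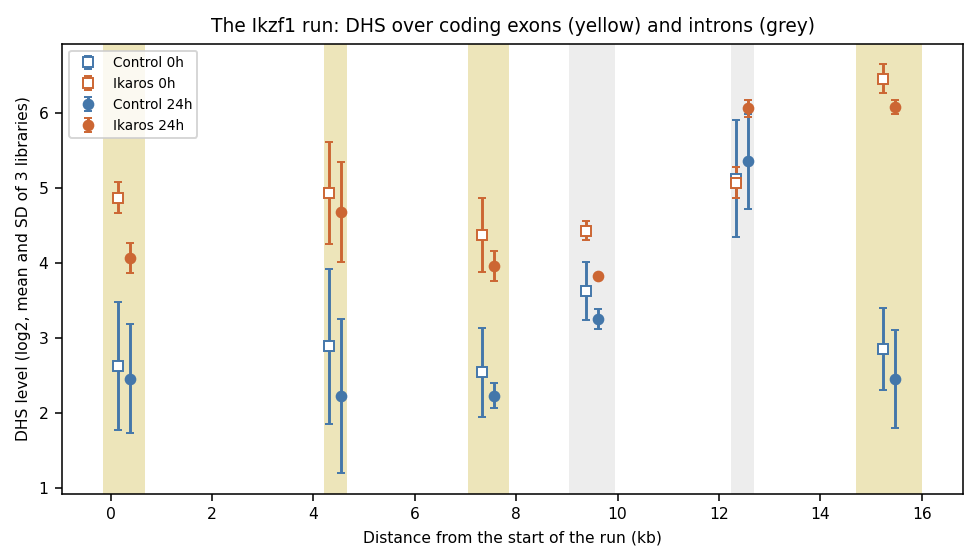
Levels of the 6 DHS of the Ikzf1 run (log2, mean and SD of 3 libraries) against their distance from the start of the run in kb, at 0 h (open squares) and 24 h (filled circles); yellow marks DHS over coding exons and grey those in introns. The 4 exon DHS differ by 1.61 to 3.63 at 24 h, and the 2 intron DHS by 0.58 and 0.70.

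The runs built on tRNA genes had lower mean levels in Ikaros from 2 h on. Of the 4 runs, 3 are described: between Ctc1 and Aurkb (chr11:69036898-69041898), between Osbp and Olfr1423 on chromosome 19 and between BC107364 and Hfe2 (chr3:96499520-96503345), with 5, 5 and 4 tRNA DHS. This grouping and the B box search were chosen after the values had been seen. All 18 DHS were lower at 6, 12, 18 and 24 h, and 16 of 18 at 2 h, whereas 14 of 18 were higher at 0 h. None of the 18 was called at 2 h or 6 h. The lines did not overlap in 7 of them at 2 h and 9 at 6 h (38.9% and 50%, against 13.6% and 22% of all DHS).

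The median difference of the 18 DHS was 0.12 at 0 h and -0.43 at 2 h. It was -0.44, -0.45, -0.59 and -0.52 at 6, 12, 18 and 24 h. The median level of the 18 DHS was 5.48 in Control and 5.73 in Ikaros at 0 h, and 5.81 and 5.23 at 24 h. Control was already at 5.81 at 2 h. Change over time was called (limma F-test) for 0 of the 18 in Control cells and 1 in Ikaros cells (5.56%, against 2.29% of all DHS). A change from 0 h and the separate collection of 0 h cells cannot be told apart here. In the 129 tRNA DHS outside runs the median difference was 0.21 at 0 h and -0.43 at 24 h, where 124 of 129 were lower. The other 436 clustered DHS had a median of -0.05 at 24 h. Of the 18, 3 were called at 24 h, all lower (16.7%, against 15.5% of tRNA DHS outside runs and the 0.517% of all DHS called lower).

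**Figure D3:**
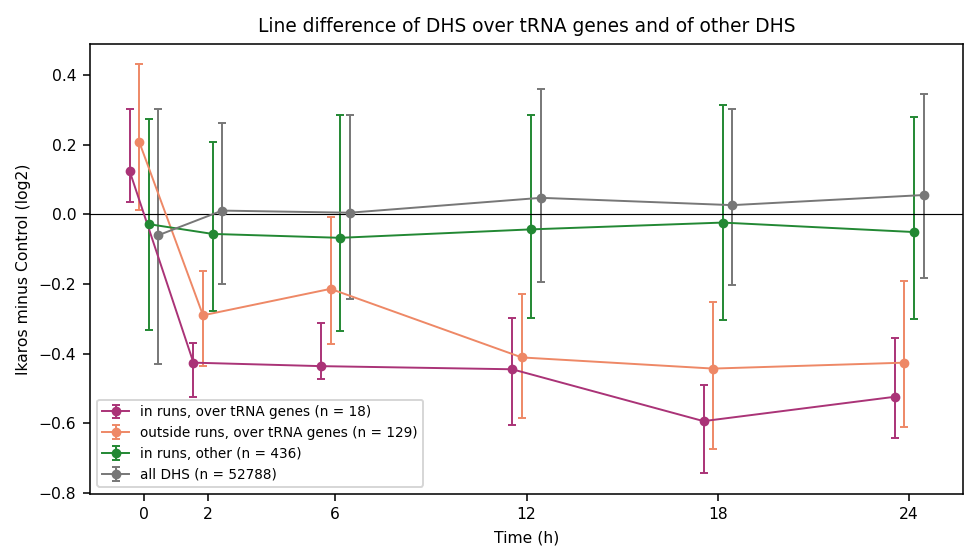
Median Ikaros minus Control difference (log2) at each time in hours for clustered DHS over tRNA genes, tRNA DHS outside runs, other clustered DHS and all DHS; bars are the quartiles over DHS, not an error of the median. Both tRNA groups lie above 0 at 0 h and below 0 from 2 h on.

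Between BC107364 and Hfe2, the run level at 24 h was 5.37, 5.64 and 5.72 in Control and 5.02, 4.98 and 4.61 in Ikaros. Its difference of -0.71 was the lowest of all runs, and 5 of its 5 DHS were lower. Between 0 h and 24 h its Control level went from 5.25 ± 0.20 (SD, n = 3) to 5.58 ± 0.18 and its Ikaros level from 5.49 ± 0.43 to 4.87 ± 0.22. The DHS at n-TKctt16, a lysine tRNA gene, was at 5.57, 5.74 and 6.10 in Control and 4.86, 5.06 and 4.91 in Ikaros. The difference was -0.86 ± 0.20 (limma adjusted p = 0.0299), against 0.32 with no call at 0 h. The call was lost without any single library but Control replicate 4 (up to 0.147), under quantile normalization and after trend removal.

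In the Ctc1/Aurkb run, beside the mitotic kinase gene Aurkb, the DHS at n-TTagt8, a threonine tRNA gene, was at 6.00, 5.83 and 6.32 in Control and 5.41, 5.19 and 5.12 in Ikaros. The difference was -0.81 ± 0.19 (limma adjusted p = 0.0296), against 0.23 with no call at 0 h. The call was lost without any single library but Control replicate 5 (up to 0.144) and under quantile normalization. The level of this run went from 5.79 ± 0.057 (SD, n = 3) at 0 h to 6.08 ± 0.19 at 24 h in Control. In Ikaros it went from 5.78 ± 0.45 to 5.54 ± 0.23. These changes of the run level were not tested and cannot be told apart from the separate collection of 0 h cells.

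tRNA genes exist in near-identical copies, and the 19 clustered genes have 15 distinct sequences with 4 identical pairs. Of the 18 DHS, 12 had under 90% of words found once, and the part of read mapping in these values was not tested.

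Other runs with lower levels in Ikaros at 24 h lay in or near genes of varied function. In an intron of Sept9, which encodes a septin of the cytoskeleton, the run was at 4.74, 4.68 and 4.95 in Control and 4.27, 4.08 and 4.32 in Ikaros, with 6 of 6 DHS lower and none called. Its level in the Ikaros line was 4.74 ± 0.23 (SD, n = 3) at 0 h and 4.22 ± 0.13 at 24 h, while Control had 4.77 ± 0.16 and 4.79 ± 0.14. The run at Cd52, a small surface glycoprotein of lymphocytes, and Crybg2 was at 4.99, 4.94 and 5.07 against 4.58, 4.41 and 4.42, again with no overlap. After removal of trends with level, GC and width the difference at 24 h went from -0.57 to -0.39 at Sept9. It went from -0.53 to -0.38 at Cd52/Crybg2 and from -0.71 to -0.65 at BC107364/Hfe2.

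In introns of Apopt1, which encodes a mitochondrial protein, the run at 24 h was at 5.18, 5.02 and 5.17 in Control and 4.54, 4.84 and 4.51 in Ikaros. This run was already lower in Ikaros at 0 h, without overlap. The 0 h levels were 5.06, 4.98 and 5.04 in Control and 4.82, 4.51 and 4.95 in Ikaros. The run difference was -0.27 at 0 h and -0.49 at 24 h, and the latter became -0.37 after trend removal. Its DHS shown above was at 5.58, 5.96 and 5.89 against 4.85, 4.96 and 4.69 at 24 h. The difference was -0.98 ± 0.26 (limma adjusted p = 0.0491), against 0.22 with no call at 0 h. The call was lost without any 1 of the 6 libraries (up to 0.152), with the replicate block (0.0659) and without the DHS of low level. Near Junb, which encodes a subunit of AP-1, the DHS shown above was at 6.43, 6.01 and 6.45 in Control and 5.55, 5.50 and 5.35 in Ikaros. The difference was -0.83 ± 0.20 (limma adjusted p = 0.0321), against -0.09 with no call at 0 h. The call was lost without any single library but Control replicate 5 (up to 0.127) and after trend removal.

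The run between Tmem121 and Adam6b lies 31835 bp from Igha, the last constant gene of the Igh locus, on the side where the 3' regulatory region of Igh is known to be. All 6 of its DHS were lower in Ikaros at 24 h, by 0.30 to 0.65, and none was called. The run level at 24 h was 5.71, 5.96 and 6.02 in Control and 5.69, 5.42 and 5.27 in Ikaros, so the groups came within 0.02 of each other. Its mean was lower in Ikaros at the other times too. The run difference was -0.30 at 0 h, where the lines overlapped, and -0.38, -0.52, -0.36 and -0.58 at 2, 6, 12 and 18 h. Ikaros 0h was the lowest of its 12 groups, at 5.30, against 5.46 in Ikaros 24h. The difference of -0.43 at 24 h became -0.26 after trend removal and -0.28 under quantile normalization. This run was the third highest in level of the 84, at 5.65.

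Runs were matched to genes on 8 lists, among them B-lineage and signalling genes. Of the 140 genes on these lists, 5 flanked or hosted a run: Ikzf1, Bcl11a, Plcg2, Cish and Cebpb. The share among all genes was not counted, so whether 5 is few or many cannot be read from this. Near Cish, an inhibitor of cytokine signalling through STAT5, the run was at 3.93, 3.91 and 4.28 in Control and 3.50, 3.59 and 3.72 in Ikaros, with 6 of 6 DHS lower and none called. Its difference of -0.44 became -0.48 after trend removal. The run beside Plcg2, a phospholipase that acts below the pre-B receptor, was at 4.87, 5.15 and 4.70 against 4.51, 4.63 and 4.45, with 5 of 5 lower and none called, and its difference of -0.38 became -0.20 after trend removal. The runs downstream of Bcl11a, a zinc finger factor of B cell development, and next to Cebpb, in Tmem189, differed by -0.16 and 0.10 and overlapped. No run flanked a gene of the recombination, growth and survival, or adhesion lists.

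**Figure D4:**
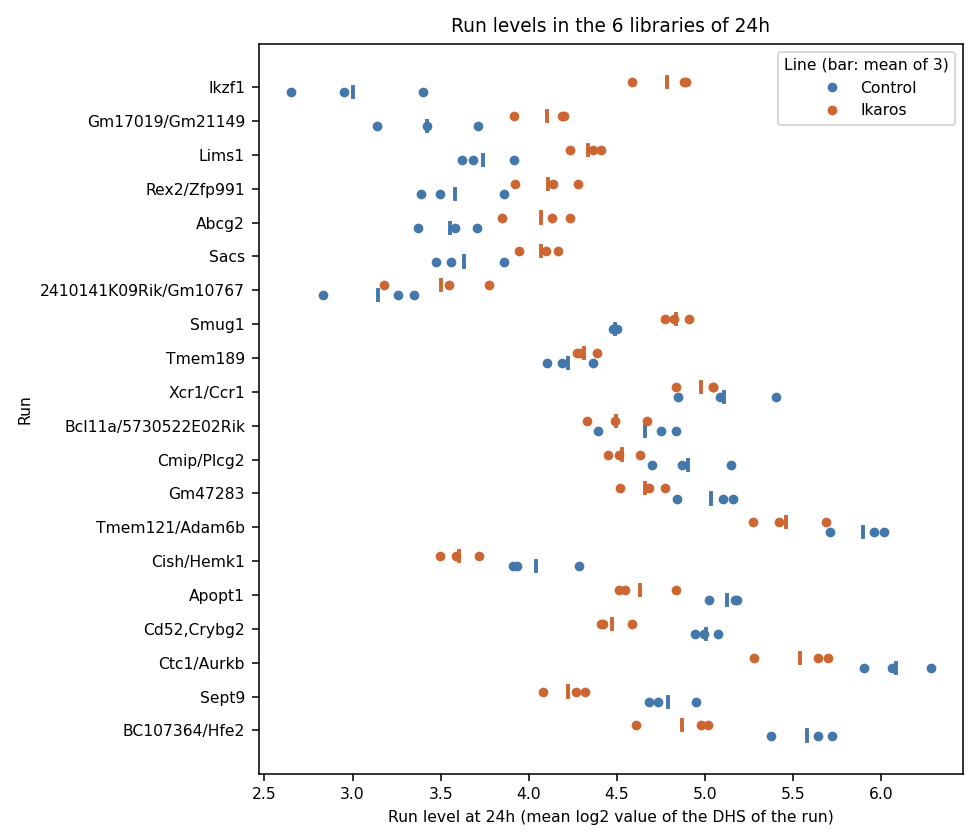
Run levels (mean log2 value of the DHS of a run) in the 3 Control and 3 Ikaros libraries of 24 h for 20 of the runs named by rule; bars are means. BC107364/Hfe2 and Sept9 are lowest in difference, and Ikzf1 and Gm17019/Gm21149 highest.

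Runs with higher levels in Ikaros were led, after Ikzf1, by Gm17019/Gm21149, at 3.71, 3.42 and 3.14 in Control and 3.92, 4.19 and 4.20 in Ikaros. On average only 50.8% of its words occur once in the genome. In Lims1, which encodes an adaptor at integrin adhesions, the run had unique words throughout and was at 3.68, 3.62 and 3.92 against 4.41, 4.36 and 4.23. Its DHS at chr10:58364120-58364309 was at 3.78, 2.66 and 2.56 in Control and 4.63, 4.48 and 4.00 in Ikaros, a difference of 1.37 ± 0.34 (limma adjusted p = 0.0371). The call was lost without any single library but Control replicate 4 (up to 0.176), with the replicate block (0.0521), after trend removal and with the 2 groups fitted alone. Between 0 h and 24 h the mean of this DHS went from 3.94 to 3.00 in Control and from 3.99 to 4.37 in Ikaros.

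In Abcg2, a gene for a drug efflux pump, all 7 DHS were higher and none was called. The run was at 3.58, 3.70 and 3.37 in Control and 3.85, 4.23 and 4.13 in Ikaros, and 76.1% of its words occur once. Control itself went from 4.12 ± 0.48 (SD, n = 3) at 0 h to 3.55 ± 0.17 at 24 h, and Ikaros from 4.26 ± 0.14 to 4.07 ± 0.20. After removal of trends with level, GC and width the differences shrank to 0.19 at Gm17019/Gm21149, 0.20 at Abcg2, 0.26 at Rex2/Zfp991 and 0.30 at Lims1.

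**Figure D5:**
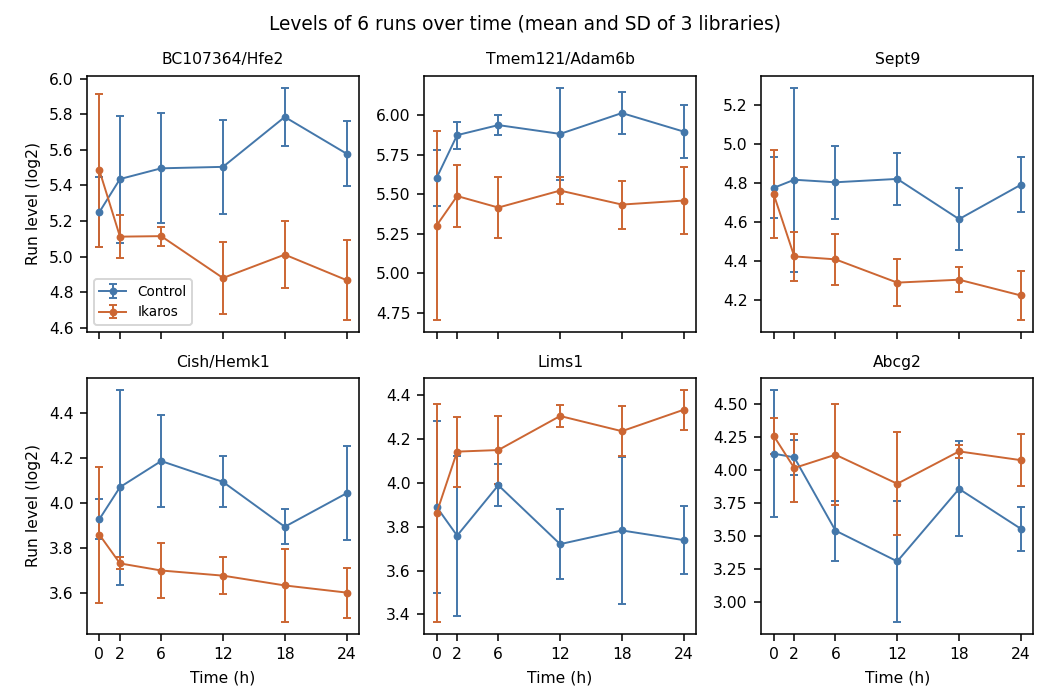
Run levels (log2, mean and SD of 3 libraries) of 6 runs against time in hours, Control in blue and Ikaros in orange. The mean Ikaros level of BC107364/Hfe2 and Sept9 is lower from 2 h on, and that of Lims1 is higher. The libraries of the lines overlap at 2 h in each of these runs, and in Lims1 also at 6 h.

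Single DHS were also called in other runs. In an intron of Ninj2, an adhesion protein gene, the DHS shown above was at 3.53, 3.41 and 3.72 in Control and 4.62, 4.79 and 4.70 in Ikaros at 24 h. It was higher in Ikaros by 1.15 ± 0.21 (limma adjusted p = 0.00566) and kept the call without any single library (up to 0.0392), but lost it when replicate 4, 5 or 6 was left out of all 12 groups (up to 0.179). Its difference was -0.49, -0.32, -0.01, 0.92 and 1.36 at 0, 2, 6, 12 and 18 h. In the Smug1 run, at a gene for a uracil-DNA glycosylase of base excision repair, the DHS with the 2 octamers was at 4.20, 4.12 and 4.00 against 5.46, 5.47 and 5.35. The difference was 1.32 ± 0.32 (limma adjusted p = 0.0356), against 0.21 (adjusted p = 0.710) at 0 h, and the call was lost without any 1 of the 6 libraries (up to 0.128) and with the replicate block (0.0508). The Smug1 run as a whole was already higher in Ikaros at 0 h, at 4.84, 4.67 and 4.68 against 4.30, 4.43 and 4.28 in Control, with 7 of 8 DHS higher and 4 called. Its run difference was 0.39 at 0 h and 0.35 at 24 h. The DHS of Hecw2, a ubiquitin ligase gene, was at 3.24, 2.81 and 3.62 in Control and 5.25, 4.31 and 4.14 in Ikaros. The difference was 1.35 ± 0.32 (limma adjusted p = 0.0289), against -0.56 with no call at 0 h, and the call was lost without replicate 4 or 5 of either line (up to 0.214), after trend removal and with the 2 groups fitted alone.

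The remaining calls at 24 h were lower. The DHS at chrY:90813501-90814002, in Gm47283, was at 4.75, 4.98 and 4.17 in Control and 3.45, 2.89 and 2.38 in Ikaros, a difference of -1.73 ± 0.40 (limma adjusted p = 0.0258). That at chr4:133836932-133837435, between Arid1a and Rps6ka1, was at 4.50, 4.37 and 4.80 against 4.04, 3.59 and 3.15, a difference of -0.96 ± 0.22 (adjusted p = 0.025). At 0 h they differed by -0.34 and -0.19, with no call. Their words were unique to 79.1% and 77.1%, and each call was lost without Ikaros replicate 5 or 6 or Control replicate 4. The first was also lost without Control replicate 5 (up to 0.121) and the other without Control replicate 6 (up to 0.141) and with the 2 groups fitted alone.

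At 0 h the largest differences were again those of Ikzf1, by 3.61, 2.25 and 2.05 (limma adjusted p = 1.77e-07, 0.00118 and 0.0142). The largest in the other direction were in Heg1, at -1.30 (adjusted p = 0.022), between Arid1a and Rps6ka1, at -1.29 (0.0265), and between Sgcd and Rack1, at -1.21 (0.0222). Each of these 3 was lost without Control replicate 6 or Ikaros replicate 4, and also under quantile normalization, after trend removal and with the 2 groups of 0 h fitted alone. The second and the third were also lost without Ikaros replicate 5, and the third without Control replicate 4 (up to 0.183, 0.161 and 0.0758 for the 3). The third Ikzf1 DHS was lost without replicate 4 of either line (up to 0.106), and the last 2 of Ikzf1 were lost with the 2 groups alone. Of the 3 lower DHS, 2 were higher in Ikaros at 24 h, by 0.59 and 0.50 at Arid1a/Rps6ka1 and Sgcd/Rack1, with no call.

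Change over time was called (limma F-test, Benjamini-Hochberg over all DHS) for 8 clustered DHS in Ikaros cells (1.76%, against 2.29% of all DHS) and 2 in Control cells (0.441%, against 0.148%). The Ninj2 DHS was among both. The interaction of line and time was called for 4 (0.881%, against 1.10%), so these shares were near or below the background apart from Control cells, where the count is 2.

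Neighbours in a run varied together only in part. Over the 12 group means, adjacent DHS of a run had a median correlation of 0.306 over 370 pairs, against 0.232 for 7318 adjacent distal DHS with like gaps outside runs and 0.168 for gaps of 5000 to 50000 bp. Over the residuals of the 36 libraries around their group means it was 0.106, 0.0626 and 0.0272. The share of neighbours that differed in the same direction at 24 h was 58.9%, 60.8% and 58.4%, so by this measure runs did not stand above other neighbours. Neighbours share libraries and base composition, and these are descriptions across pairs, without a test. Differences in level between DHS of the same run made up 27.9% of the variance in level among clustered DHS.

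Across the 84 runs, the difference at 24 h was lower where the level was higher (r = -0.495) and where GC content was higher (r = -0.332). The runs share libraries, and the part of level and GC content in the run differences was not tested.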

How the data were processed

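DNase-seq was measured in 36 libraries. According to the methods of the study, the authors trimmed reads to 36 bp, aligned them to mm10 with Bowtie2 keeping single alignments, called narrow and broad peaks per replicate with HOMER, merged them into consensus DHS, filtered low DHS, scaled by RPKM and TMM and removed with ARSyN a source of variation that they could not tie to batch or library preparation. The deposited values are log2 normalised levels, so counts were not used; the methods give a minimum depth per library, but the reads behind each value are unknown; precision is set by 3 libraries a group. The base of DHS starts (0 or 1) was not given in the sources used here; sequences were read from start plus 1.

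Members and lists were chosen with earlier results of these data known. limma 3.58.1 in R 4.3.3 was fitted to all 52788 DHS with 12 group means and an intensity trend (lmFit, contrasts, eBayes), two-sided, Benjamini-Hochberg threshold 0.05. Nothing says replicates are more than separate cultures of 1 line. The fit was tested on simulated data. Run levels were not tested. Named were the 8 runs with most DHS (ties by shortest span, chosen afterwards), the 6 highest and 6 lowest runs without overlap at 24 h, runs with 3 or more calls in 1 direction, runs at listed genes, the 8 largest called DHS without overlap each way at 24 h and 3 each way at 0 h. Replicate numbers share batches in the labels; residuals of same-numbered libraries of both lines correlated between -0.175 and 0.183 (median -0.0153). Alternatives were the replicate block, a pseudocount of 1, a low-level filter, quantile normalization, trend removal, gaps of 2500 and 10000 bp, the compared groups alone and leaving out libraries. tRNA genes came from RefSeq, 403 on the assembled chromosomes. One run named by these rules, its called DHS and 1 further tRNA DHS are not reported here.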

Additional observations from a re-analysis of the deposited data

Results flagged for a closer look

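The interaction of line and time (limma F-test over all DHS) was called for 4 clustered DHS, of which 2 are described here, meaning that the lines differed by unequal amounts at different times. In the Ninj2 run it had an adjusted p of 0.0043, with a difference of -0.49 at 0 h and 1.15 at 24 h. In the Tex44/Ptma run the DHS at chr1:86503979-86504579 had an adjusted p of 0.0371, with 0.87 at 0 h and -0.19 at 24 h. The 0 h cells were obtained separately, so time and collection cannot be told apart in these contrasts.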

How the results depend on the processing

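Shares are percent of clustered DHS called. The share of all DHS under the same alternatives is not given here, so a shift relative to all DHS cannot be read from them. Fitted on the 2 groups compared alone the shares were 0.220, 0, 0.441, 0, 0.661 and 3.52 at 0, 2, 6, 12, 18 and 24 h. By construction fewer libraries estimate the spread there, whereas the main fit uses 1 spread per DHS across the 12 groups. The mean replicate SD of clustered DHS was 0.437 in Ikaros and 0.392 in Control at 0 h, against 0.253 and 0.329 at 24 h. Leaving out replicates or single libraries gave 2.64 to 10.1 at 0 h, 0.220 to 1.98 at 2, 18 and 24 h, 0.220 to 1.76 at 6 h, 0 to 2.20 at 12 h, 0 to 0.220 for change over time in Ikaros cells, 0 to 3.52 in Control cells and 0 to 0.441 for the interaction. With the replicate block, paired by batch, the shares were 0.220 at 2 h, 1.32 at 12 h, 0.220 for change over time in Control cells and 0.441 for the interaction; apart from the DHS given with a blocked value above, it changed no other call of a named DHS. Quantile normalization gave 0.220 at 2 h, 0.661 at 12 h, 1.32 at 18 h, 0 for Control change and 0.220 for the interaction. Trend removal gave 5.51 at 0 h, 1.10 at 12 h, 0.220 for Control change and 0.220 for the interaction. Without DHS under the 25th percentile of level the shares were 0.245 at 2 h, 0.490 at 6 h, 2.94 for Ikaros change and 1.47 for the interaction. Gaps of at most 2500 bp gave 0 at 2 h, 0 at 6 h, 4.84 for Ikaros change, 0 for Control change and 3.23 for the interaction, and gaps of 10000 bp gave 0.258 at 2 h, 1.39 at 18 h, 2.16 at 24 h and 0.226 for Control change. Chosen after seeing the data, leaving out the Ikzf1 run gave 0 at 2 h, 0.223 at 6 h and 1.34 at 18 h, and leaving out the repeated runs gave 0.253 for Control change. The cause of these shifts was not tested. The median of the clustered tRNA DHS at 24 h lay between -0.68 and -0.35 under every alternative run on it, and no named value changed sign where it had been called. Leaving out replicate 5 or 6 from all 12 groups ended every named call at 24 h but the Ikzf1 difference of 3.63, and leaving out replicate 4 every one but that and Apopt1. The reads behind each value are unknown, and 3 libraries a group limit what can be called.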
